A study of Homo sapiens with 6 samples.

Results

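The enzymes that write, remove and oxidise methyl groups on histones and DNA, and those that add and remove histone acetyl groups, were followed in L428 cells after an siRNA against BATF3. L428 is an established human Hodgkin lymphoma line. The 41 genes form a list of named enzymes and core complex subunits, and all 41 of them were measured among the 18244 genes of the table. A gene was represented by whichever of its probe sets had the highest mean on the 6 arrays, leaving out probe sets annotated with several gene symbols. Whether the remaining probe sets also bind RNA of other genes was not examined. Total RNA of cells nucleofected with the BATF3 siRNA was read on 3 Affymetrix PrimeView arrays, and RNA of cells nucleofected with a negative control siRNA on another 3. Both groups received 3 µg of siRNA and were cultured for 48 hours. There was a single BATF3 siRNA condition, in a single cell line. Nothing in the labels says that replicates were separate cultures, so the p-values describe the spread between these arrays, which may be technical.

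Chromatin carries marks on the tails of histones and on cytosine. Methylation of H3K27 by Polycomb repressive complex 2 (PRC2) and of H3K9 by the SUV39H, SETDB1 and EHMT enzymes goes with silent genes. Methylation of H3K4 and acetylation go with active promoters and enhancers, and methylation of H3K36 and H3K79 goes with transcribed gene bodies. Demethylases, deacetylases and TET dioxygenases remove these marks or start their removal. Mutations in several of these enzymes, among them EZH2, KMT2D, CREBBP and EP300, are known from B cell lymphomas. BATF3, the factor targeted here, is a basic leucine zipper protein that binds AP-1 motifs with JUN proteins, and its relatives also bind with IRF factors.

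No chromatin enzyme passed the threshold after BATF3 siRNA (0 of 41 in limma at an adjusted p under 0.05, with p-values adjusted over all genes). Over all genes 3 passed, or 0.0164%. At an unadjusted p under 0.05 there were 3 members, NSD1, EHMT2 and HDAC4, and all 3 were lower after BATF3 siRNA. That is 7.32% of the members, beside 7.15% of all genes, of which 680 were higher and 624 lower. The smallest adjusted p of any member was 0.593. Changes ran from −0.43 for HDAC4 to +0.20 for HDAC9 on the log2 scale, with 21 members positive and 20 negative. Their median was 0.0028, beside −0.0027 over all genes.

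**Figure D1:**
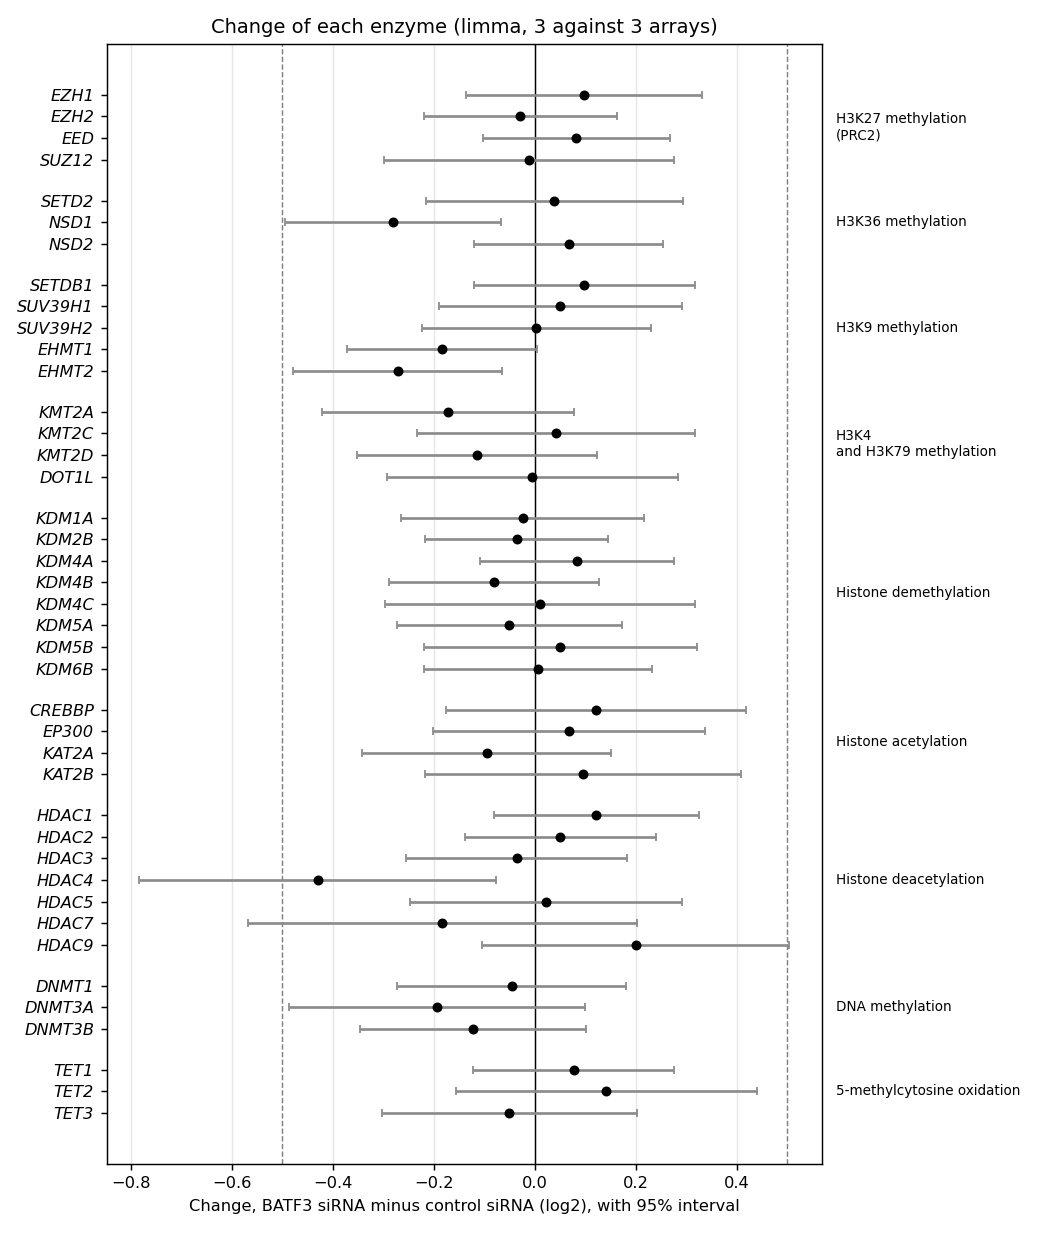
Change of each of the 41 enzymes, BATF3 siRNA minus control siRNA (log2, horizontal axis), with 95% confidence intervals from limma and dashed lines at −0.5 and 0.5. The points run from −0.43 (HDAC4) to 0.20 (HDAC9), and the intervals of HDAC4, HDAC7 and HDAC9 reach past a dashed line.

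Most of these changes had narrow intervals, judged by the spread between these arrays. For 38 of the 41 members the 95% confidence interval of the change lay within 0.5 of 0 on the log2 scale, a ratio of 1.41, as it did for 87.8% of all genes. The other members were HDAC4, HDAC7 and HDAC9. Those inside include KDM4B, KDM5B, KAT2B, DNMT3A, DNMT3B and TET1, which did not exceed the highest background probe set on any array. For these genes a narrow interval need not bound the change in RNA. The median standard error was 0.106 over the members and 0.107 over all genes. These are intervals for single genes and are not adjusted for their number.

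BATF3 read 10.87, 10.76 and 10.69 in the BATF3 siRNA arrays (replicates 1, 2 and 3), against 11.89, 12.08 and 11.94 in the control arrays. The groups lay apart, and BATF3 fell to 0.436 of the control level (change −1.20, SE 0.095; limma adjusted p = 0.00673). It did not pass without BATF3 siRNA replicate 3 (adjusted p = 0.0688) or without control siRNA replicate 2 (adjusted p = 0.0648), with changes of −1.16 and −1.14. Of the 7 genes listed as markers of Hodgkin cells, 6 lay above the highest background probe set in all arrays, among them TNFRSF8, which encodes CD30. Of 4 measured B cell genes CD79B alone did, and the 12 listed markers of T and NK cells, myeloid cells, fibroblasts and epithelium all lay under it on all 6 arrays. The array background differed: for the GC-rich control probe sets (20 to 25 G or C letters), BATF3 siRNA replicate 1 was at 6.49, replicate 2 at 5.92 and replicate 3 at 5.98, and the control arrays were at 6.46 to 6.49. The changes were also fitted with this background as a block. Of the 41 members, 29 then moved by over 1.5 times or turned sign (10 turned), and those values stand beside each gene. That fit sets BATF3 siRNA replicate 1 alone against the 3 control arrays, and in it BATF3 itself was at −1.10 (limma adjusted p = 0.306; range over all alternatives 3.82e-05 to 0.306).

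Most of these enzymes were read above background in L428. Of the 41 genes, 32 exceeded each array's highest background probe set on all 6 arrays, or 78.0%, beside 42.8% of all genes. HDAC4 did so on 4 arrays and HDAC5 on 3, all of them BATF3 siRNA arrays. That highest background was 7.18, 6.68 and 6.73 in BATF3 siRNA replicates 1, 2 and 3, and 7.11 to 7.32 in the control arrays. The other 7, KDM4B, KDM5B, KAT2B, HDAC9, DNMT3A, DNMT3B and TET1, exceeded it on none, and the sizes of their changes are uncertain. Which background applies to each is not known, because probe base composition was not examined. Probe sets differ in how strongly they bind, so levels are not ranked between genes. Each gene was represented by its highest probe set, and 36 of 41 members had more than 1, as did 11825 of 18244 genes. The shares above background were not adjusted for this.

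**Figure D2:**
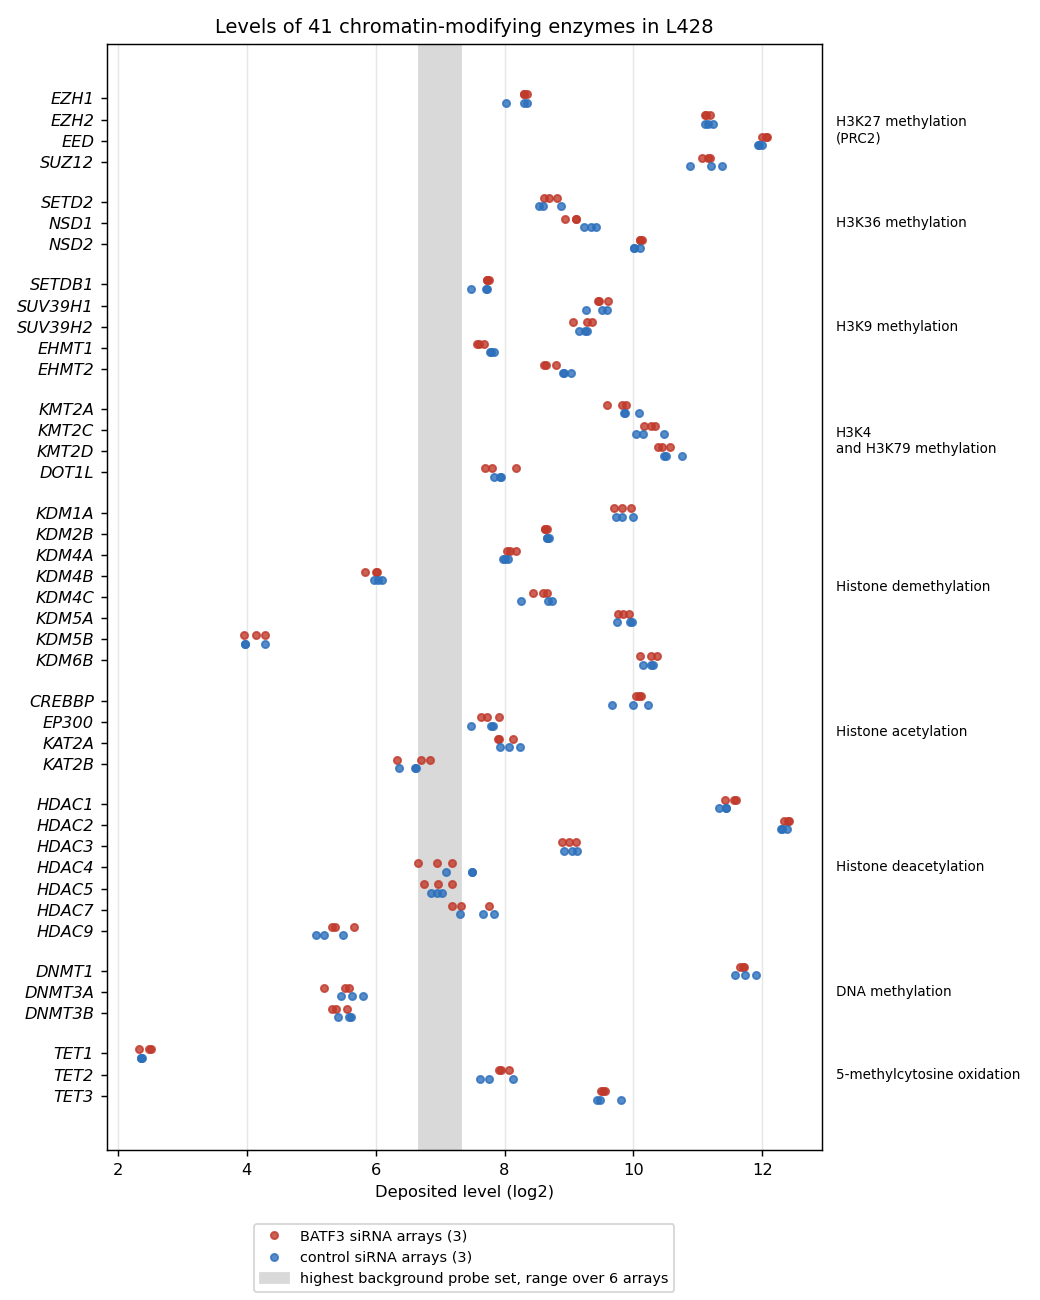
Deposited log2 level of each enzyme on each array (horizontal axis), with BATF3 siRNA arrays above control siRNA arrays in each row, and in grey the range of the highest background probe set over the 6 arrays (6.68 to 7.32). The 7 genes KDM4B, KDM5B, KAT2B, HDAC9, DNMT3A, DNMT3B and TET1 lie under the highest background of their own array throughout, and the points of both groups overlap in 36 of the 41 genes.

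The promoters of these genes were searched for 2 motifs, as a description of sequence with no link to binding in these cells. The letters TGANTCA cover the AP-1 type motif that BATF and JUN dimers bind, and TGACGTCA is the related cyclic AMP response type. Each reads the same on both strands, and the 2 do not overlap. RefSeq windows of 250 bases before to 50 after an annotated start (GRCh38.p14) were held for 39 members, 68 windows in all. DOT1L and HDAC5 had none in that table. TGANTCA was found in 2 of the 39 genes, HDAC9 and KDM4C, or 5.13%, beside 9.37% of the 27305 genes in the table. Counted by window this was 3 of 68, beside 7.71% of all windows. TGACGTCA was found in SUV39H2, 1 of 39 genes, beside 2.25% of all genes and 1.85% of all windows. The 3 stretches are shown because they are the ones in the list that hold either motif, with up to 50 bases on each side, none past the annotated start, and the motif in capitals. They lie on the plus strand at chr9:6757864-6757970 (KDM4C), chr7:18495632-18495709 (HDAC9) and chr10:14878700-14878807 (SUV39H2).
KDM4C: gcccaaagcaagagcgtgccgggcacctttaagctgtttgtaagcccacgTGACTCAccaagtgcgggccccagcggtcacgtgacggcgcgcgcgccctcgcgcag
HDAC9: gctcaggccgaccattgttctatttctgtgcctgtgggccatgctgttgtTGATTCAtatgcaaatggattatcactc
SUV39H2: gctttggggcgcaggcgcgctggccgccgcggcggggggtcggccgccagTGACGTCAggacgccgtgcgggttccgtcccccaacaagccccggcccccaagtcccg

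The motif began 59 bases before the start of KDM4C and 116 before that of SUV39H2. In HDAC9 it began 28 bases before 1 annotated start and 67 before another. The changes of these genes were +0.011 for KDM4C, +0.20 for HDAC9 and +0.0028 for SUV39H2, and none passed the threshold. No window of NSD1, EHMT2 or HDAC4 held either motif, which says only that these letters are not in those windows.

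PRC2 joins the methyltransferase EZH2 or EZH1 to the subunits EED, which binds methylated H3K27, and SUZ12, which holds the complex together. Of the 4 genes 0 passed, with changes from −0.028 to 0.099. EED read 12.06, 12.05 and 11.996 in the BATF3 siRNA arrays, against 11.99, 11.95 and 11.93 in the control arrays. The groups did not overlap, though the distance was small at +0.083 (SE 0.082; limma adjusted p = 0.884). All 4 EED probe sets were positive, at 0.083 to 0.17, but they read the same RNA samples and are not replicates. EZH2, the main methyltransferase of dividing cells, averaged 11.14 ± 0.038 on the BATF3 siRNA arrays and 11.17 ± 0.065 on the control arrays (mean ± SD of log2 values, n = 3 each, as in all such pairs that follow). Its 95% interval was −0.22 to 0.16, a ratio of 0.859 to 1.12. The background block put EZH2 at −0.060 and SUZ12 at −0.085. EZH1, the form that prevails in resting cells, averaged 8.32 ± 0.028 against 8.22 ± 0.17 (+0.099). SUZ12 averaged 11.13 ± 0.067 against 11.15 ± 0.25 (−0.011), and its control arrays spread from 10.87 to 11.37. Its other probe sets were at +0.15 and +0.18.

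Of the 3 H3K36 methyltransferases 0 passed, and NSD1 had the smallest p. NSD1, which mono- and dimethylates H3K36, read 8.93, 9.10 and 9.11 in the BATF3 siRNA arrays, against 9.34, 9.41 and 9.23 in the control arrays. All BATF3 siRNA arrays lay below all control arrays. The change was −0.28 (SE 0.095; 95% interval −0.49 to −0.066; limma adjusted p = 0.593), and leaving out each array in turn gave −0.33 to −0.22. With the background block it was −0.39 (limma adjusted p = 0.784; range over all alternatives 0.247 to 1.00). Each of the 8 NSD1 probe sets was negative, at −0.36 to −0.061. These probe sets read the same 6 RNA samples and are not replicates. NSD2, a related enzyme known from translocations in myeloma, averaged 10.11 ± 0.017 against 10.04 ± 0.056, a difference of +0.067. Its 12 probe sets ran from −0.21 to +0.22, with 3 positive. SETD2, which adds the last methyl group to H3K36, was at +0.039 (8.71 ± 0.10 against 8.67 ± 0.18), or −0.050 with the block.

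Among the H3K9 methyltransferases the partners EHMT1 (GLP) and EHMT2 (G9a), which work as a pair, both lay lower. EHMT2 read 8.64, 8.80 and 8.61 in the BATF3 siRNA arrays, against 8.91, 9.03 and 8.92 in the control arrays. EHMT1 read 7.68, 7.61 and 7.58 in the BATF3 siRNA arrays, against 7.79, 7.84 and 7.78 in the control arrays. For both genes the groups did not overlap, and neither passed the threshold. The EHMT2 change was −0.27 (SE 0.092; 95% interval −0.48 to −0.064; limma adjusted p = 0.593), or −0.32 with the background block (adjusted p = 0.890; range over all alternatives 0.169 to 1.00). The EHMT1 change was −0.18 (SE 0.084; 95% interval −0.37 to 0.0056; limma adjusted p = 0.709), or −0.12 with the block (adjusted p = 1.00; range 0.229 to 1.00). EHMT2 had 1 probe set. Of the 3 for EHMT1, the others were at −0.13 and 0.00097, so the difference did not appear in each of them. SETDB1, which silences retroelements, averaged 7.74 ± 0.015 against 7.64 ± 0.14, a change of +0.099. The SUV39H enzymes act at constitutive heterochromatin. SUV39H1 averaged 9.51 ± 0.084 against 9.46 ± 0.17 (+0.051), and SUV39H2 9.23 ± 0.15 against 9.23 ± 0.063 (+0.0028). With the block they were at 0.15 (SUV39H1) and −0.16 (SUV39H2).

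**Figure D3:**
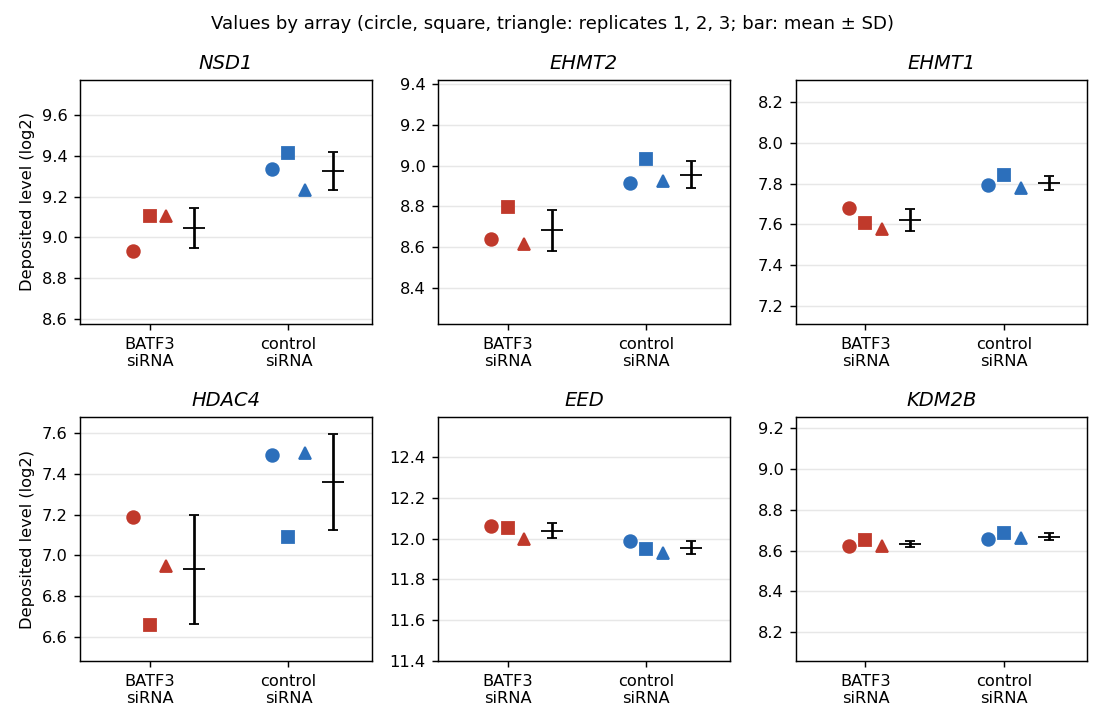
Deposited log2 levels by array for NSD1, EHMT2, EHMT1, HDAC4, EED and KDM2B (vertical axes all 1.2 log2 units high), with the BATF3 siRNA arrays at left in each panel and the mean ± SD of 3 arrays beside them. The groups lie apart in each panel but that of HDAC4, by small distances for EED (+0.083) and KDM2B (−0.036), and no gene shown passed the threshold.

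The H3K4 methyltransferases KMT2A, KMT2C and KMT2D, of the MLL family, and the H3K79 methyltransferase DOT1L had 0 of 4 past the threshold. KMT2A had the smallest p of the 4 and read 9.88, 9.59 and 9.82 in the BATF3 siRNA arrays, against 10.09, 9.86 and 9.86 in the control arrays. The groups overlapped, since BATF3 siRNA replicate 1 lay above control replicates 2 and 3. KMT2A differed by −0.17 (SE 0.11; limma adjusted p = 0.816), by −0.054 with the background block, and by −0.23 to −0.084 with each array left out in turn. Its 8 probe sets were of mixed sign. KMT2D was at −0.11 (10.46 ± 0.091 against 10.58 ± 0.16), KMT2C at +0.043 (10.26 ± 0.093 against 10.21 ± 0.23) and DOT1L at −0.0046 (7.90 ± 0.26 against 7.90 ± 0.057). By array, DOT1L read 8.18, 7.81 and 7.69 after BATF3 siRNA, against 7.92, 7.94 and 7.84 after control siRNA. With the background block its change was +0.28 (limma adjusted p = 0.890; range over all alternatives 0.612 to 1.00), and that of KMT2D was −0.014.

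The 8 histone demethylases had changes from −0.080 to 0.084, and 0 passed. KDM4A, an H3K9 and H3K36 demethylase, had the smallest p and read 8.17, 8.04 and 8.08 in the BATF3 siRNA arrays, against 8.001, 7.98 and 8.06 in the control arrays (change +0.084, SE 0.085; limma adjusted p = 0.890). KDM2B, an H3K36 demethylase that also brings a Polycomb complex to CpG islands, read 8.62, 8.65 and 8.62 in the BATF3 siRNA arrays, against 8.66, 8.69 and 8.66 in the control arrays. Those groups did not overlap at a change of only −0.036 (limma adjusted p = 0.954), with an SD of 0.016 in the BATF3 siRNA arrays and 0.017 in the control arrays. KDM6B removes methyl groups from H3K27 and is known as an inducible gene. It averaged 10.24 ± 0.13 against 10.24 ± 0.087, with an interval of −0.22 to 0.23. KDM1A, the H3K4 demethylase LSD1, averaged 9.83 ± 0.13 against 9.85 ± 0.13 (−0.024), and the H3K4 demethylase KDM5A 9.84 ± 0.086 against 9.89 ± 0.13 (−0.050). KDM4C, which acts on H3K9 and H3K36, averaged 8.56 ± 0.12 against 8.55 ± 0.27 (+0.011), and its control arrays ran from 8.25 to 8.74. Under the highest background, KDM4B, of the same family, averaged 5.96 ± 0.099 against 6.04 ± 0.067 (−0.080), and KDM5B, an H3K4 demethylase, 4.13 ± 0.16 against 4.08 ± 0.17 (+0.051). With the background block KDM4A was at 0.16, KDM6B at 0.12, KDM1A at 0.11, KDM5A at 0.040 and KDM4C at 0.038, and KDM4B was at −0.031 and KDM5B at −0.12.

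The acetyltransferases CREBBP and EP300 are paralogs that acetylate enhancers, and KAT2A and KAT2B are the catalytic paralogs of SAGA-type complexes. Of the 4 genes 0 passed. CREBBP read 10.12, 10.09 and 10.05 in the BATF3 siRNA arrays, against 10.22, 9.67 and 9.99 in the control arrays. The control arrays spanned the BATF3 siRNA arrays on both sides, and the change was +0.12 (SE 0.13; limma adjusted p = 0.8996). Without control siRNA replicate 2 it was −0.024. EP300 averaged 7.76 ± 0.15 against 7.69 ± 0.18 (+0.068), KAT2A 7.98 ± 0.12 against 8.08 ± 0.15 (−0.095), and KAT2B, under the highest background, 6.63 ± 0.26 against 6.53 ± 0.14 (+0.096). Under the block they were at 0.23 (EP300), 0.048 (KAT2A) and 0.32 (KAT2B).

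The deacetylases fell into class I enzymes (HDAC1, HDAC2 and HDAC3), which work in nuclear corepressor complexes, and class IIa enzymes (HDAC4, HDAC5, HDAC7 and HDAC9), which move between nucleus and cytoplasm. In class I the changes were +0.12, +0.051 and −0.035. HDAC1 averaged 11.52 ± 0.090 against 11.40 ± 0.061, HDAC2 12.38 ± 0.039 against 12.33 ± 0.051, and HDAC3 8.997 ± 0.11 against 9.03 ± 0.099. The block put HDAC1 at 0.020, HDAC2 at 0.0077 and HDAC3 at 0.072. In class IIa, HDAC4 read 7.19, 6.66 and 6.95 in the BATF3 siRNA arrays, against 7.49, 7.09 and 7.503 in the control arrays. The groups overlapped, because BATF3 siRNA replicate 1 lay above control replicate 2. The change of −0.43 was the largest of the 41 in size (SE 0.16; 95% interval −0.78 to −0.077; limma adjusted p = 0.621). With the background block it was −0.17 (limma adjusted p = 1.00; range over all alternatives 0.0860 to 1.00), and the other 5 HDAC4 probe sets ran from −0.21 to 0.026. In both groups replicate 2 did not reach its array's highest background. HDAC7 was at −0.18 (7.42 ± 0.30 against 7.60 ± 0.27), with all 6 probe sets negative, at −0.27 to −0.086. With the block it was at +0.15, and with each array left out in turn it ran from −0.35 to −0.064. HDAC5 averaged 6.97 ± 0.22 against 6.95 ± 0.088 (+0.022, or 0.24 with the block). HDAC9, whose level lay under the highest background on all arrays, averaged 5.46 ± 0.19 against 5.26 ± 0.22, a change of +0.20 (SE 0.14; limma adjusted p = 0.825). It was 0.068 with the block, where many other members were higher, KAT2B and DOT1L the most. With each array left out in turn, HDAC9 ran from 0.093 to 0.32.

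DNMT1, the maintenance DNA methyltransferase, averaged 11.69 ± 0.025 against 11.73 ± 0.16, a change of −0.046 (SE 0.10), or −0.074 with the background block. The de novo enzymes DNMT3A and DNMT3B lay under the highest background. DNMT3A read 5.53, 5.20 and 5.59 in the BATF3 siRNA arrays, against 5.81, 5.64 and 5.46 in the control arrays, with overlap (change −0.19, SE 0.13; limma adjusted p = 0.825). It was −0.10 with the block and −0.28 to −0.074 with each array left out in turn. DNMT3B averaged 5.42 ± 0.11 against 5.54 ± 0.11 (−0.12), and its 11 probe sets ran from −0.30 to 0.32. The 3 genes thus all had negative point estimates, and the interval of each held 0. Among the TET dioxygenases, which oxidise methylcytosine, TET2 had the smallest p. TET2 read 8.07, 7.91 and 7.95 in the BATF3 siRNA arrays, against 8.13, 7.62 and 7.76 in the control arrays. Control replicate 1 lay above all BATF3 siRNA arrays, and the change was +0.14 (SE 0.13; limma adjusted p = 0.872). It was 0.24 with the block and 0.033 to 0.29 with each array left out in turn. TET3 averaged 9.53 ± 0.035 against 9.58 ± 0.21 (−0.050), and TET1, under the highest background, 2.45 ± 0.098 against 2.37 ± 0.012 (+0.078, or −0.035 with the block).

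The 2 groups of arrays did not overlap in 5 of 41 members, EED higher and NSD1, EHMT1, EHMT2 and KDM2B lower, or 12.2%, beside 12.1% of all genes. The exact two-sided permutation test of 3 arrays against 3 gives p = 0.1 for each of these 5 genes, which is the smallest p that it can give.

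The 41 genes were read by 156 probe sets annotated with a single gene symbol, and 36 genes had more than 1. In a test of all probe sets 0 of the 156 passed, beside 0.0101% of all probe sets. At an unadjusted p under 0.05 there were 11, or 7.05%, beside 7.16% of all, and all 11 were lower after BATF3 siRNA. The split by direction over all probe sets is not given here, and probe sets of 1 gene are not independent. NSD1 accounted for 4 of the 11 and NSD2, EHMT2, HDAC4, HDAC5, HDAC7, CREBBP and DNMT3B for 1 each. In 10 of the 36 genes all probe sets had 1 sign: EZH1, EED, SETD2, KDM6B and HDAC2 were positive, and NSD1, KMT2D, HDAC7, DNMT1 and TET3 were negative. In the other 26 the signs were mixed. Of the 10, KMT2D, KDM6B, HDAC2, DNMT1 and TET3 had only 2 probe sets each. The share over all genes was not computed, so the count is not read as particular to these enzymes.

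**Figure D4:**
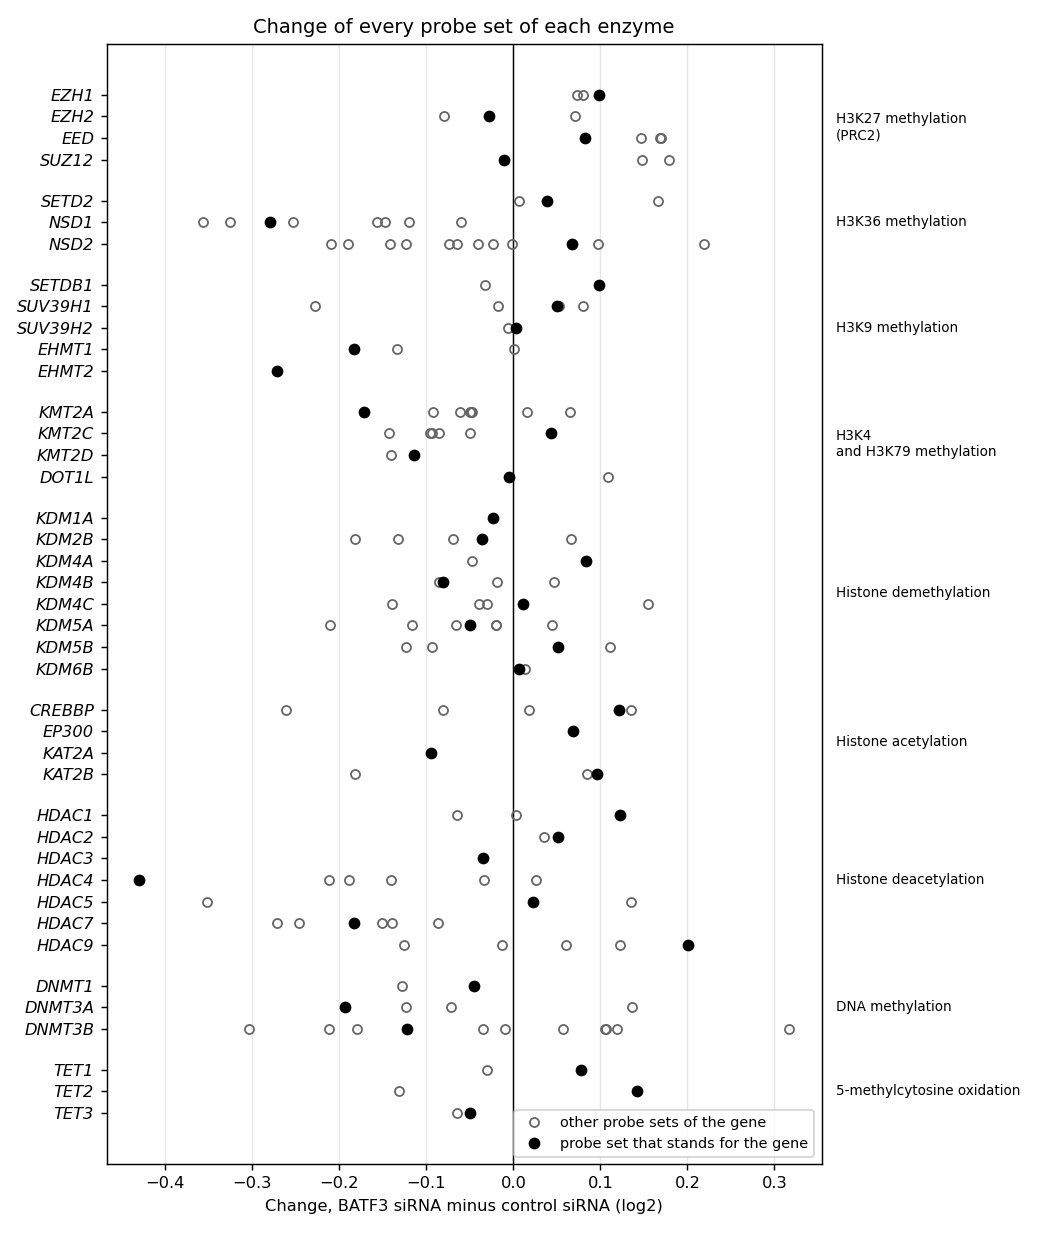
Change of each of the 156 probe sets of the 41 enzymes, BATF3 siRNA minus control siRNA (log2, horizontal axis), where filled points are the probe sets that stand for the gene and open points the others. All 8 points of NSD1 and all 6 of HDAC7 lie left of 0, all 4 of EED lie right of it, and those of DNMT3B lie on both sides.

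Partners and related enzymes of the same machinery were read from a longer list. Of its 113 genes 105 were measured, and the other 8 were not analysed here. In the 105 genes 0 passed in limma in either direction, and 4 had an unadjusted p under 0.05, 2 higher and 2 lower, or 3.81%, beside 7.15% of all genes. Their median change was −0.021. The Polycomb partner MTF2 read 10.23, 10.35 and 10.47 in the BATF3 siRNA arrays, against 10.00, 10.01 and 10.12 in the control arrays (change +0.30; limma adjusted p = 0.543). All 9 MTF2 probe sets were positive, at 0.030 to 0.30, and with the background block the change was +0.18 (limma adjusted p = 0.996; range over all alternatives 0.145 to 1.00). PCGF2, a subunit of Polycomb complexes, was at −0.22 (7.88 ± 0.060 against 8.10 ± 0.13; limma adjusted p = 0.689) and is named after its values were seen. DNMT3L, a cofactor of the de novo DNA methyltransferases, was at +0.44 (5.03 ± 0.021 against 4.59 ± 0.19; limma adjusted p = 0.446), under the highest background on all arrays. The arginine methyltransferase PRMT2 was at −0.29 (8.13 ± 0.13 against 8.42 ± 0.083; limma adjusted p = 0.602), with all 7 probe sets negative, and −0.17 with the block. In the other sublists the genes with the smallest p were MEN1 at −0.21 among partners of H3K4 methyltransferases, KDM3B at −0.14 among demethylases and KAT8 at +0.20 among acetyltransferases. SIRT6, under the highest background on all arrays, was at −0.26 among deacetylases and GATAD2B at −0.16 among corepressor subunits. With the block they were at −0.072 (SIRT6) and 0.021 (GATAD2B).

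Arrays of 1 group also differed from each other. Class medians of gene-centred values ran from −0.10 to 0.14 over the BATF3 siRNA arrays and from −0.23 to 0.057 over the control arrays for the acetyltransferases. For the H3K4 and H3K79 methyltransferases they ran from −0.11 to 0.041 in BATF3 siRNA arrays and from −0.056 to 0.23 in control arrays. Of the 9 classes the PRC2 subunits had the smallest SD of array medians within groups, pooled over both groups (0.023). Their medians were −0.0059 to 0.039 in BATF3 siRNA arrays and −0.027 to 0.016 in control arrays. The median SD within groups was 0.128 over the members and 0.132 over all genes.

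**Figure D5:**
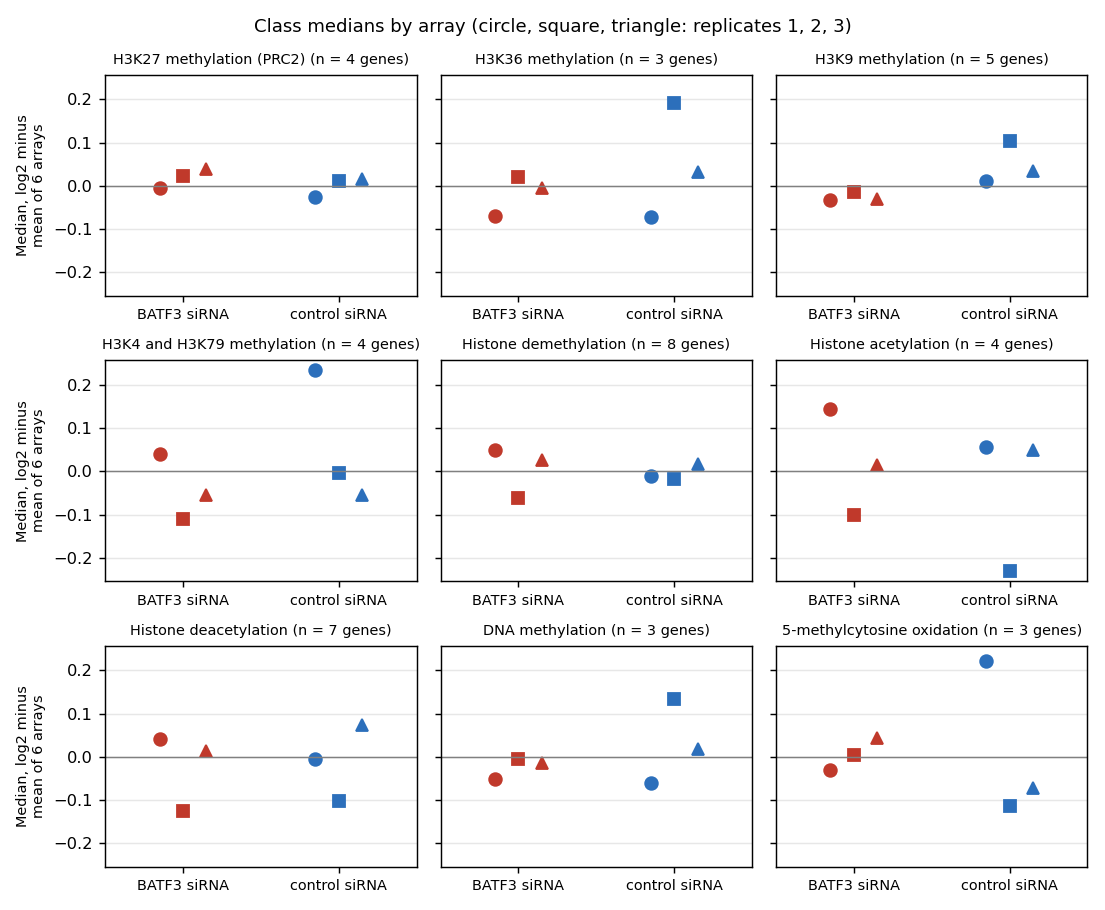
Median over the genes of each class of the log2 value minus the gene's mean of 6 arrays (vertical axis), for each BATF3 siRNA array at left and control siRNA array at right. The demethylation, acetylation and deacetylation classes are lowest in replicate 2 of both siRNAs, and the groups overlap in each class but H3K9 methylation, where the BATF3 siRNA arrays lie at −0.032 to −0.014 and the control arrays at 0.010 to 0.10 although 3 of its 5 genes had positive changes (median 0.0028).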

How the data were processed

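Total RNA from 6 L428 samples was read on Affymetrix PrimeView arrays. The log2 values per probe set were used as deposited by the authors. The affy package is named, per the submitters' processing notes; for background correction, normalization and summarization the method is not given in the sources, and the log base was inferred from the values. Of 49495 probe sets, 102 were controls, 45278 had 1 gene symbol, 1333 several and 2782 none, and 45208 of those with 1 symbol were matched to a RefSeq gene, with 0 symbols changed. Each of 18244 genes was represented by its probe set with the highest mean. Precision is limited by having 3 arrays per group; array medians were 6.24 to 6.33.

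BATF3 siRNA minus control siRNA was fitted by lmFit and eBayes (limma 3.58.1, R 4.3.3) as a two-sided test, with Benjamini-Hochberg adjustment across all genes, a threshold of 0.05 on the adjusted p, no minimum fold, no pseudocount or filter, after a test on simulated data. Probe sets were tested likewise. Every enzyme is named, with all 6 arrays shown for those at an unadjusted p under 0.05 and for the smallest p of each class; each sublist of partners gives the gene with the smallest p. The members, lists and array background block were chosen with earlier results of these data known. Alternatives were other normalizations, filters, probe set rules, array weights, priors, blocks, a threshold of 0.1 and leaving out each array.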

Additional observations from a re-analysis of the deposited data

How the results depend on the processing

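In limma 0 of the 41 enzymes and 0 of the 105 partners passed under any alternative, and 0 of the 156 probe sets under those run on probe sets. The smallest adjusted p of a member was 0.0860 (HDAC4 with array weights, −0.58), and 2 to 5 members had an unadjusted p under 0.05. Genes passing among all numbered 25 with array weights, 12 with an intensity trend and robust prior, 9 and 7 with the filters at the median level and the highest background, 5 with the most variable probe set, 2 with quantile normalization, median centring or cyclic loess, 0 with the background block and 0 to 2 with each array left out, against 3 as reported. Replicate numbers were not taken as pairs, since deviations of same-numbered arrays correlated at 0.029, 0.15 and −0.025 and replicates 1 and 3 did not match their own number best; with the replicate block 3 genes passed, 0 of them members, the members' median stayed at 0.0028 and BATF3 at −1.20 (adjusted p = 0.0137). BATF3 was at −1.10 with the background block (adjusted p = 0.306), and from −1.24 to −1.14 with each array left out. The members' median change was 0.038 with the background block, −0.026 with array weights, −0.024 with the most variable probe set, and −0.026 to 0.018 with each array left out. Members whose groups did not overlap numbered 2 with the most variable probe set and 5 to 14 with each array left out, where fewer arrays leave less room for overlap. Of 436 values of the members under alternatives other than leaving out an array 49 changed sign, as did 34 more with an array left out. This touched 31 of the 41 members, all with a reported change of at most 0.194 in size, and the cause was not tested. With the array background block, SETD2 was at −0.050, SUV39H2 was at −0.16, DOT1L was at 0.28, KDM1A was at 0.11, KDM5A was at 0.040, KDM5B was at −0.12, KAT2A was at 0.048, HDAC3 was at 0.072, HDAC7 was at 0.15, TET1 was at −0.035 and GATAD2B was at 0.021. With array weights, KDM4C was at −0.12, KDM6B was at −0.037, EP300 was at −0.036, KAT2B was at −0.0057 and HDAC5 was at −0.073. With cyclic loess, SUV39H2 was at −0.0094 and KDM6B was at −0.011. With the mean of a gene's probe sets, SUZ12 was at 0.11, NSD2 was at −0.041, SUV39H1 was at −0.012, SUV39H2 was at −0.0017, KMT2C was at −0.071, DOT1L was at 0.052, KDM4C was at −0.0086, KDM5B was at −0.014, CREBBP was at −0.014, KAT2B was at −0.00030 and HDAC5 was at −0.065. With median centring, SUZ12 was at 0.013, DOT1L was at 0.020 and KDM1A was at 0.00039. With the most variable probe set, SUZ12 was at 0.18, NSD2 was at −0.0013, SETDB1 was at −0.032, SUV39H1 was at −0.23, EHMT1 was at 0.00097, KMT2A was at 0.065, KMT2C was at −0.096, DOT1L was at 0.11, KDM4A was at −0.048, KDM4B was at 0.046, KDM4C was at −0.030, KAT2B was at −0.18, HDAC5 was at −0.35, DNMT3A was at 0.14, DNMT3B was at 0.12, TET2 was at −0.13, KDM3B was at 0.062 and SIRT6 was at 0.16. With quantile normalization, SUV39H2 was at −0.017 and KDM6B was at −0.010. With each array left out in turn, EZH2 ran from −0.059 to 0.0058, SUZ12 ran from −0.15 to 0.10, SETD2 ran from −0.028 to 0.14, SUV39H1 ran from −0.044 to 0.12, SUV39H2 ran from −0.057 to 0.086, KMT2C ran from −0.048 to 0.17, DOT1L ran from −0.15 to 0.098, KDM1A ran from −0.090 to 0.049, KDM4C ran from −0.14 to 0.11, KDM5B ran from −0.026 to 0.15, KDM6B ran from −0.052 to 0.079, CREBBP ran from −0.024 to 0.25, EP300 ran from −0.038 to 0.13, KAT2B ran from −0.013 to 0.24, HDAC3 ran from −0.089 to 0.018, HDAC5 ran from −0.086 to 0.13, DNMT1 ran from −0.12 to 0.034 and TET3 ran from −0.12 to 0.068. Dim probe sets and 3 arrays a group limit what could be seen.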

Other observations

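Replicate 2 was the lowest array of both siRNA groups for 13 of the 41 enzymes, or 31.7%, beside 12.8% of all genes and 11 of the 105 partners and related genes (10.5%). The 13 were KMT2C, KDM4A, KDM4C, KDM5A, KDM6B, EP300, KAT2B, HDAC3, HDAC4, HDAC5, HDAC7, TET2 and TET3. This count was made after the values had been seen. It was the largest among all pairings of a BATF3 siRNA replicate with a control replicate, and some others lay under their all-gene share. BATF3 siRNA replicate 3 and control replicate 2 were lowest together in 2.44% of members, beside 9.21% of all genes. The genes share the same arrays, and the cause of the count was not tested.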
